A study of Bos taurus with 28 samples.

Results

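The genes described here are 6 genes of matrix remodelling and of stromal cells, namely CEMIP (ENSBTAG00000007431), ADAMTS1 (ENSBTAG00000000706), ADAMTSL4 (ENSBTAG00000003604), CCDC80 (ENSBTAG00000010793), VIM (ENSBTAG00000018463) and SFRP2 (ENSBTAG00000018563). They were chosen by name and ID, with earlier results of these heifers known. They are 6 of the 24596 gene IDs in the count tables, with 19458 of these detected in 1 heifer or more. RNA was sequenced from 1 post mortem biopsy of the uterus from each of 28 heifers after a synchronised oestrus. The HF treatment held 10 heifers inseminated with semen of high-fertility bulls, the LF treatment 10 heifers inseminated with semen of low-fertility bulls, and the CTRL treatment 8 heifers that received no semen. Heifers of the HF and LF treatments were sampled 12 h after insemination. Each of these treatments used 5 bulls with 2 heifers per bull, so the heifers of a treatment share bulls in pairs. The work ran in 2 study replicates. The labels give a Holstein-Freisan background, whereas the animal list of the study names crosses of Limousin (4 HF, 3 LF and 4 CTRL heifers), Charolais (4 HF, 5 LF and 1 CTRL) and other breeds (2 HF, 2 LF and 3 CTRL), so breed and treatment cannot be fully told apart. Heifers are named by treatment and number, as HF1, LF1 or CTRL1.

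The stroma of the endometrium is connective tissue made of fibroblasts in a matrix of collagens, proteoglycans and hyaluronan, and it is rebuilt in every oestrous cycle. CEMIP binds hyaluronan and takes part in its breakdown. ADAMTS1 is a secreted metalloprotease that cuts large proteoglycans such as versican, and ADAMTSL4 is a relative with no protease domain that binds fibrillin microfibrils. CCDC80 is a secreted protein of the matrix, VIM is the intermediate filament protein of fibroblasts and other mesenchymal cells, and SFRP2 is a secreted protein that binds Wnt ligands.

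Total counts per heifer ranged from 14872812 to 25633259, and in all 118 pairs of heifers within a treatment the counts differed by more than sampling noise. Levels are stated in normalized CPM, that is counts per 1e6 counts of an effective library from TMM, and gene lengths were not used, so levels are compared between heifers and not between genes. All 6 genes passed the filter on low counts in every comparison. Differences are log2 fold changes (log2FC) from edgeR's quasi-likelihood test with the standard error, and DESeq2 was run beside it, both with Benjamini-Hochberg adjustment over all genes tested. At an adjusted p under 0.05, edgeR called none of the 6 genes, and 0% of all genes tested, in any comparison. Of the stromal marker list, 4 of 17 genes could be matched to an ID by name (VIM, COL6A3, FBLN1 and HAND2), all 4 were detected in every heifer at 36.1 CPM or more, and their summed level was 3825 to 6166 CPM in HF, 3536 to 6379 in LF and 3739 to 6277 in CTRL heifers. A biopsy is a mixture of cells, so fewer cells of a type and less RNA per cell cannot be told apart in these data. The methods of the study state that the endometrium was cut away from the muscle layer.

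Smooth muscle genes moved with several of these genes. Of 12 smooth muscle markers, 6 had a name (ACTA2, MYLK, SMTN, SYNPO2, CALD1 and MYOCD), and none of them was at 0 in any heifer, although the lowest value was 0.0489 CPM in an HF heifer. Their summed level was 742 to 6222 CPM in HF heifers (median 1293), 524 to 4788 CPM in LF heifers (median 2017) and 1059 to 8713 CPM in CTRL heifers (median 5283). Their mean log2 CPM was 6.51 ± 1.05 (SD, n = 10) in HF, 6.36 ± 1.05 (SD, n = 10) in LF and 7.52 ± 1.36 (SD, n = 8) in CTRL heifers. All 6 were at lower levels in HF and LF than in CTRL heifers, by a log2FC of −0.62 (SMTN) to −1.95 (MYOCD). In that comparison 4 of the 6 were lower at an unadjusted edgeR p under 0.05, against 5.99% of all genes in that direction. Names were mostly taken from a list of the study sorted by its p-value for LF against CTRL heifers. The share of named markers that differ from CTRL is therefore not independent evidence. The same 6 markers form the smooth muscle mean used as a covariate below.

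CEMIP had lower levels in both treatments with semen than in CTRL heifers, and 1 CTRL heifer set much of the size of the difference. In HF heifers its level ran from 1.56 to 13.7 CPM with a median of 7.93. In LF heifers it ran from 1.95 to 27.2 CPM with a median of 7.09, and in CTRL heifers from 3.21 to 178 CPM with a median of 18. All 10 HF heifers and 8 of 10 LF heifers were below the CTRL median, and the groups overlapped at their low ends. Having all HF heifers on 1 side of the CTRL median was shared by 8.04% of all genes tested. The highest level, 178 CPM from 3060 counts, belonged to CTRL1, and the highest of the HF and LF heifers was LF10. Mean levels were 7.45 ± 3.58 CPM (SD, n = 10) in HF, 10.2 ± 8.39 (SD, n = 10) in LF and 35.3 ± 58.4 (SD, n = 8) in CTRL heifers.

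In HF heifers relative to CTRL heifers CEMIP had a log2FC of −2.24 (standard error 0.61, adjusted p = 0.150 in edgeR), and DESeq2 called it lower (adjusted p = 0.0266), where it called 2.12% of 15459 genes, 1.07% lower and 1.05% higher. In LF relative to CTRL heifers the log2FC was −1.79 (standard error 0.67, edgeR unadjusted p = 0.0152, edgeR adjusted p = 0.874). With HF and LF set together against the same CTRL heifers it was −2.01 (standard error 0.49, adjusted p = 0.234 in edgeR), and DESeq2 again called it lower (adjusted p = 0.0353), with 0.168% of all genes called. Without CTRL1 the edgeR log2FC was −0.999, −0.53 and −0.76 in these comparisons, and neither DESeq2 call was kept (adjusted p = 0.223 for HF and 0.678 for HF and LF together). When heifers were left out 1 at a time, DESeq2 called CEMIP in 13 of the 18 fits of HF and CTRL heifers (the omission of HF2, HF9, HF10, CTRL1 or CTRL4 ended the call). It did so in 19 of the 28 fits of HF and LF against CTRL (the omission of HF2, HF4, HF9, LF3, LF4, LF5, LF9, CTRL1 or CTRL4 ended it).

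The log2FC of CEMIP also differed between the study replicates, and it changed once smooth muscle level was adjusted for. Within study replicate 1, which held CTRL1, the log2FC was −2.86 in HF and −3.05 in LF heifers relative to CTRL heifers. Within study replicate 2 it was −1.10 and −0.19. A fit that held the smooth muscle mean gave −0.48 (standard error 0.48) in HF and 0.07 (standard error 0.58) in LF heifers, so that the sign turned in LF, and DESeq2 with this covariate did not call it in HF (adjusted p = 0.630). With breed as a covariate it was −1.79 in HF and −1.23 in LF heifers. Between HF and LF heifers CEMIP had a log2FC of −0.47 (standard error 0.43, adjusted p = 0.850 in edgeR, 95% interval −1.30 to 0.37).

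Other genes of hyaluronan were read beside CEMIP. Of 17 genes of hyaluronan turnover and binding, 4 had a name, and besides CEMIP these were the cell surface receptor CD44, the receptor LYVE1 of lymphatic vessels, and the link protein HAPLN1. All 4 were at lower levels in HF and LF than in CTRL heifers at an unadjusted p under 0.05, a bound that 5.99% of all 15163 genes passed in that direction and 11.6% in either direction. Their median log2FC was −1.25, against −0.01 over all genes. CEMIP, which is among the 6 chosen genes, is part of this count and median. In HF alone relative to CTRL heifers 2 of the 4 passed as lower (8.27% of all genes). In LF alone 3 did (2.71% of all genes). CD44 had a log2FC of −1.04 (standard error 0.31, adjusted p = 0.253 in edgeR), HAPLN1 −1.46 (standard error 0.63, adjusted p = 0.399) and LYVE1 −0.48 (standard error 0.22, adjusted p = 0.417). Named genes were mostly taken from a supplementary sheet of the study sorted by its p-value for LF against CTRL heifers, so the share of named genes with small p-values in any list is not independent evidence.

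ADAMTS1 was below the CTRL median in all 20 heifers that received semen. Its level ran from 112 to 258 CPM in HF heifers (median 216.4), from 130.0 to 255 CPM in LF heifers (median 175), and from 175 to 397 CPM in CTRL heifers (median 283). The ranges overlapped, with 5 of 8 CTRL heifers above every HF and LF heifer and 5 of 10 LF heifers below every CTRL heifer. Of the LF heifers, 5 lay between 130.0 and 146 CPM and 5 between 204 and 255 CPM. Having all 10 LF heifers on 1 side of the CTRL median was shared by 2.17% of all genes tested, and having all HF heifers there by 8.04%. No share over all genes was computed for counts of heifers above or below every heifer of another treatment, here or further on.

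The log2FC of ADAMTS1 was −0.41 in HF relative to CTRL heifers (standard error 0.16, unadjusted p = 0.0180; adjusted p = 0.228 in edgeR and 0.152 in DESeq2). In LF relative to CTRL heifers it was −0.58 (standard error 0.18, edgeR unadjusted p = 0.00431, edgeR adjusted p = 0.874). In HF and LF together it was −0.50 (standard error 0.15; adjusted p = 0.253 in edgeR and 0.124 in DESeq2). Neither tool called it in these comparisons. It was negative within each study replicate, at −0.30 and −0.52 in HF and at −0.59 and −0.55 in LF heifers. Adding the smooth muscle covariate gave −0.23 in HF and −0.35 in LF heifers. HF and LF heifers differed by 0.15 (standard error 0.15, adjusted p = 0.866 in edgeR, 95% interval −0.14 to 0.45).

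ADAMTSL4 was lowest in LF heifers and highest in CTRL heifers. In HF heifers it ran from 15.7 to 72.9 CPM with a median of 34.9, in LF heifers from 18.6 to 47.8 CPM with a median of 25.3, and in CTRL heifers from 28.9 to 133 CPM with a median of 52.2. All 10 LF heifers and 8 of 10 HF heifers were below the CTRL median, and 6 LF heifers were below every CTRL heifer. For 2.17% of all genes tested all LF heifers lay on 1 side of the CTRL median. CTRL1 again had the highest level and HF7 the lowest. Between LF and CTRL heifers the log2FC was −1.17 (standard error 0.29), with the 10th smallest of 14849 p-values (edgeR unadjusted p = 7.24e-04, edgeR adjusted p = 0.874, DESeq2 adjusted p = 0.191). The gene was picked with earlier results of these heifers known, so this rank describes it and does not test it.

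Between HF and CTRL heifers ADAMTSL4 had a log2FC of −0.73 (standard error 0.32; adjusted p = 0.271 in edgeR and 0.191 in DESeq2). With both treatments together it was −0.95 (standard error 0.25; adjusted p = 0.237 in edgeR and 0.0746 in DESeq2). HF and LF heifers differed by 0.43 (standard error 0.24, adjusted p = 0.696 in edgeR, 95% interval −0.05 to 0.90), and this difference did not hold across study replicates, at 1.04 in the first and −0.26 in the second. The difference between HF and CTRL heifers was likewise −0.25 in study replicate 1 and −1.32 in study replicate 2, while that between LF and CTRL heifers was −1.29 and −1.05. In the fit with the smooth muscle covariate the log2FC was −0.12 (standard error 0.17) in HF and −0.52 (standard error 0.18) in LF heifers.

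Other genes of the ADAMTS and ADAMTS-like family were read beside these. Of 25 genes 4 had a name, and they were ADAMTS1, ADAMTSL4 and the proteases ADAMTS17 and ADAMTS19. At an unadjusted p under 0.05, 2 of the 4 were lower in the HF treatment relative to CTRL (8.27% of all genes in that direction) and 4 of the 4 in LF (2.71% of all genes), with 0 called when adjusted over all genes by edgeR or by DESeq2. The 2 that passed in HF were ADAMTS1 and ADAMTSL4, which are among the chosen genes and are part of both counts. ADAMTS17 and ADAMTS19 passed in LF but not in HF. The names came mostly from the list sorted by p-value for LF against CTRL heifers, so these shares are not independent evidence. ADAMTS17 had a log2FC of −0.58 (standard error 0.31) in HF and −0.73 (standard error 0.30) in LF heifers. ADAMTS19 had −0.24 (standard error 0.20) and −0.48 (standard error 0.23). Of 22 genes of microfibrils and elastic fibres 2 had a name, and in HF and LF relative to CTRL heifers fibulin 1 (FBLN1) had a log2FC of 0.28 (standard error 0.12, adjusted p = 0.401 in edgeR) and the collagen and elastin crosslinking enzyme LOX −0.37 (standard error 0.20, adjusted p = 0.486). Of 17 matrix metalloproteinases and their inhibitors only MMP16 had a name, at −0.26 (standard error 0.36, adjusted p = 0.817).

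CCDC80 had higher levels in heifers that received semen. It ran from 628.5 to 1280.3 CPM in HF heifers (median 801), from 413 to 1109 CPM in LF heifers (median 662) and from 335 to 751 CPM in CTRL heifers (median 544). All 10 HF heifers and 9 of 10 LF heifers were above the CTRL median, 5 HF heifers were above every CTRL heifer, and the ranges overlapped. For 8.04% of all genes tested all HF heifers lay on 1 side of the CTRL median. The highest HF heifers, HF4 and HF9, had received semen of the same bull and were at 1280.3 and 1079 CPM. Both were also Limousin crosses, and HF10, of another bull and a Charolais cross, was at 1059 CPM. In HF relative to CTRL heifers the log2FC was 0.71 (standard error 0.19, adjusted p = 0.149 in edgeR), and DESeq2 called it higher (adjusted p = 0.0273).

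The DESeq2 call for CCDC80 was made in 12 of the 18 fits with 1 heifer omitted, not when HF9, HF10, CTRL1, CTRL4, CTRL5 or CTRL8 was the one omitted, and the log2FC lay between 0.62 and 0.79 over the 18. In LF relative to CTRL heifers its log2FC was 0.46 (standard error 0.21, edgeR unadjusted p = 0.0379, edgeR adjusted p = 0.874), and in HF and LF together 0.58 (standard error 0.18; adjusted p = 0.260 in edgeR and 0.103 in DESeq2). Study replicates gave 0.59 and 0.82 in HF and 0.43 and 0.51 in LF heifers. Once the smooth muscle mean was in the fit the log2FC was 0.59 (standard error 0.20) in HF and 0.28 (standard error 0.22) in LF heifers, and DESeq2 with that covariate did not call it in HF (adjusted p = 0.124). HF and LF heifers differed by 0.24 (standard error 0.17, adjusted p = 0.773 in edgeR, 95% interval −0.10 to 0.58). Of 3 related genes only CCDC80 itself had a name.

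VIM had higher levels in HF than in CTRL heifers, by less than CCDC80, and the narrowest spread of the 6 genes. Its level ran from 2121 to 3055 CPM in HF heifers (median 2617), from 1570.3 to 3202 CPM in LF heifers (median 2287) and from 1356 to 2452 CPM in CTRL heifers (median 1944). All 10 HF heifers were above the CTRL median and 7 of them above every CTRL heifer. For 8.04% of all genes tested all HF heifers lay on 1 side of the CTRL median. In LF heifers 7 of 10 were above the CTRL median, and the LF heifers reached both above every HF heifer and below every HF heifer. The log2FC was 0.40 in HF relative to CTRL heifers (standard error 0.12, adjusted p = 0.158 in edgeR), and DESeq2 called it higher (adjusted p = 0.0316).

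For VIM the call was made in 9 of the 18 fits with 1 heifer omitted, while the log2FC lay between 0.33 and 0.44. It was not made when the omitted heifer was HF9, HF10, any of HF2 to HF5, CTRL1, CTRL4 or CTRL8. In LF relative to CTRL heifers the log2FC was 0.28 (standard error 0.16, edgeR unadjusted p = 0.0920, edgeR adjusted p = 0.874), and in HF and LF together 0.34 (standard error 0.12; adjusted p = 0.329 in edgeR and 0.193 in DESeq2). Study replicates gave 0.39 and 0.42 in HF and 0.20 and 0.39 in LF heifers. Given the smooth muscle mean as a covariate the log2FC was 0.36 (standard error 0.12) in HF and 0.14 (standard error 0.17) in LF heifers, and DESeq2 with that covariate did not call it in HF (adjusted p = 0.119). HF and LF heifers differed by 0.11 (standard error 0.13, adjusted p = 0.906 in edgeR, 95% interval −0.14 to 0.37).

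Other stromal and filament genes did not follow VIM as a group. In HF relative to CTRL heifers the stromal marker FBLN1 had a log2FC of 0.32 (standard error 0.13, adjusted p = 0.241 in edgeR), the collagen VI chain COL6A3 −0.52 (standard error 0.19, adjusted p = 0.202) and the stromal transcription factor HAND2 0.03 (standard error 0.22, adjusted p = 0.967). In the HF treatment relative to CTRL, 2 of the 4 named stromal markers were higher (7.76% of all genes in that direction) and 1 lower (8.27%) at an unadjusted p under 0.05, and their median log2FC was 0.17 against −0.02 over all genes. In HF and LF together these counts were also 2 and 1, where 11.6% of all genes passed in either direction. VIM itself was 1 of the 2 higher markers in both comparisons and entered the median. Among the others FBLN1 passed as higher and COL6A3 as lower, and HAND2 did not pass. These names have the source given above for the hyaluronan genes, so the shares are not independent evidence. Of 12 intermediate filament genes 3 had a name. Beside VIM, the muscle filament gene SYNM had a log2FC of −1.11 (standard error 0.53, adjusted p = 0.308) and the epithelial keratin KRT8 0.08 (standard error 0.22, adjusted p = 0.893) in HF relative to CTRL heifers.

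SFRP2 varied widely between heifers within every treatment. It ran from 54.3 to 1749.8 CPM in HF heifers (median 219), from 33.7 to 908 CPM in LF heifers (median 148) and from 73.8 to 1858 CPM in CTRL heifers (median 257). Levels of HF heifers lay evenly on both sides of the CTRL median, with 5 above and 5 below, while 3 LF heifers were above it and 7 below. The 2 heifers of 1 bull could be far apart, at 33.7 and 908 CPM for 1 LF bull (26.9-fold) and at 1749.8 and 74.9 CPM for 1 HF bull (23.4-fold). None of the comparisons passed either test.

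The log2FC of SFRP2 was −0.23 in HF relative to CTRL heifers (standard error 0.76, adjusted p = 0.909 in edgeR, 95% interval −1.72 to 1.26) and −1.33 in LF relative to CTRL heifers (standard error 0.70, adjusted p = 0.874 in edgeR, 95% interval −2.71 to 0.05). HF and LF heifers differed by 1.09 (standard error 0.69, adjusted p = 0.736 in edgeR, 95% interval −0.27 to 2.44). That difference was 2.41 (standard error 0.96) in study replicate 1 and −0.22 (standard error 0.80) in study replicate 2. The difference between HF and CTRL heifers turned in the same way, at 1.08 (standard error 1.06) and −1.55 (standard error 0.88). Neither of these 2 was called (adjusted p = 0.913 and 0.666 in edgeR). Under the smooth muscle covariate SFRP2 had a log2FC of 1.18 (standard error 0.38, adjusted p = 0.258 in edgeR) in HF and 0.66 (standard error 0.60, adjusted p = 0.9998 in edgeR) in LF relative to CTRL heifers, both of the opposite sign. Of 13 secreted modulators of Wnt signalling 2 had a name, and the second, SFRP5, had a log2FC of −0.03 (standard error 0.33) in HF and −0.85 (standard error 0.31, edgeR unadjusted p = 0.0129, edgeR adjusted p = 0.874) in LF relative to CTRL heifers.

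**Figure D1:**
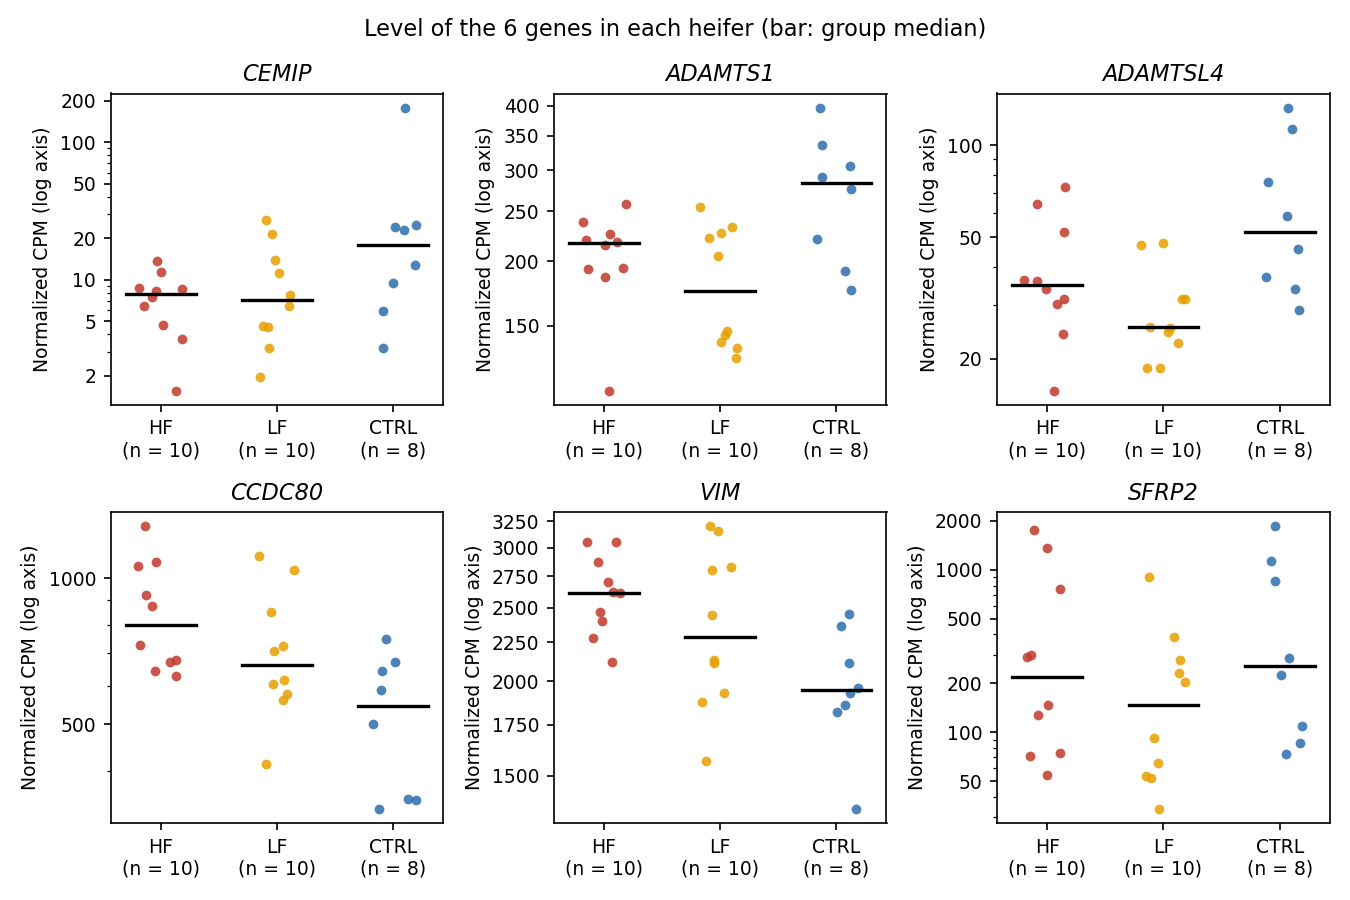
Normalized CPM of each of the 6 genes on a log axis, with 1 point per heifer (10 HF, 10 LF and 8 CTRL) and a bar at the group median. CEMIP, ADAMTS1 and ADAMTSL4 have their highest median in CTRL heifers (18, 283 and 52.2 CPM), CCDC80 and VIM their highest in HF heifers (801 and 2617 CPM), and SFRP2 spreads from 33.7 to 1858 CPM.

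Across the 6 genes, the comparisons with CTRL heifers share the same 8 CTRL heifers, so their values are given side by side and not as separate support. In HF relative to CTRL heifers 5 of the 6 genes had an unadjusted edgeR p under 0.05, against 16.0% of 14885 genes tested, and DESeq2 called the 3 given above (CEMIP lower, CCDC80 and VIM higher). In LF relative to CTRL heifers 4 of the 6 had an unadjusted p under 0.05, against 5.65% of 14849 genes, and DESeq2 called 0 of the 6 and 0.0104% of 19179 genes. In HF and LF together 5 of the 6 had an unadjusted p under 0.05, against 11.6% of 15163 genes, and DESeq2 called CEMIP, against 0.168% of 16062 genes. Between HF and LF heifers 0 of the 6 had an unadjusted edgeR p under 0.05, against 7.92% of 14793 genes, and DESeq2 called 0 of the 6, against 0.162% of 16625 genes. Over all genes edgeR called 0 in each comparison when adjusted. The 6 genes were picked with earlier results of these heifers known, so these counts describe the genes and do not test them.

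**Figure D2:**
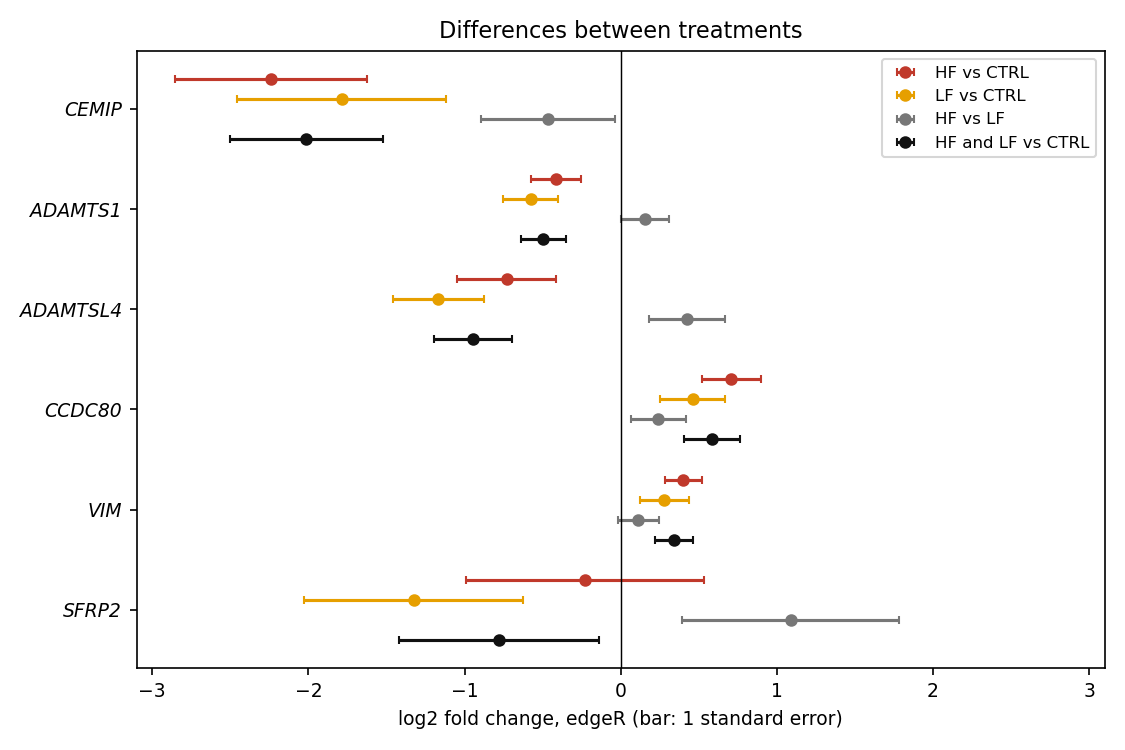
The log2 fold change of each gene from edgeR in the 4 comparisons, with bars of 1 standard error. CEMIP, ADAMTS1 and ADAMTSL4 lie below 0 and CCDC80 and VIM above 0 in every comparison with CTRL heifers, while the bars of SFRP2 are the widest (standard errors 0.64 to 0.76).

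Over all 28 heifers the SD of log2 CPM was 1.71 for SFRP2, 1.36 for CEMIP, 0.75 for ADAMTSL4, 0.50 for CCDC80, 0.43 for ADAMTS1 and 0.31 for VIM, with a median of 0.44 over 15163 genes. SFRP2 and CEMIP thus had larger spreads than 99.3% and 97.9% of genes, whereas VIM exceeded 28.2%. Among the 500 genes of the nearest mean level the shares were 99.8% for SFRP2, 97.0% for CEMIP and 35.2% for VIM.

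The genes that varied together were described by correlations of log2 CPM over the 28 heifers, which share treatments, bulls and tissue makeup. ADAMTSL4 followed SFRP2 (Spearman 0.75, Pearson 0.76), and did so within HF, LF and CTRL heifers taken alone (Spearman 0.75, 0.73 and 0.83). CEMIP followed ADAMTS1 over all 28 heifers (Spearman 0.68, Pearson 0.77) and within LF and CTRL heifers (0.76 and 0.79) but not within HF heifers (−0.08). CCDC80 and VIM had a Spearman correlation of 0.42 over all heifers and of 0.22, 0.09 and −0.10 within HF, LF and CTRL heifers. For ADAMTS1 and CCDC80 the Spearman correlation was −0.81 in CTRL (n = 8), 0.43 in HF (n = 10) and −0.08 in LF heifers (n = 10). For ADAMTS1 and VIM it was 0.82 in HF, −0.41 in LF and 0.10 in CTRL heifers.

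With the mean of the 6 smooth muscle markers, the Spearman correlation over 28 heifers was 0.86 for ADAMTSL4, 0.81 for SFRP2, 0.73 for CEMIP, 0.50 for ADAMTS1, −0.31 for VIM and −0.50 for CCDC80. Inside the treatments it was 0.93 in HF, 0.77 in LF and 0.90 in CTRL heifers for ADAMTSL4, and 0.76, 0.71 and 0.86 for SFRP2. For ADAMTS1 it was 0.71 in CTRL heifers and −0.09 and 0.08 in HF and LF heifers. For CEMIP it was 0.49 in HF, 0.47 in LF and 0.93 in CTRL heifers. In the same order it was −0.52, −0.52 and −0.29 for CCDC80 and 0.07, −0.21 and −0.17 for VIM. CTRL1 had the highest smooth muscle mean (9.07) along with the highest CEMIP, ADAMTS1 and ADAMTSL4, and HF7 had the lowest smooth muscle mean (4.82) along with the lowest CEMIP, ADAMTS1 and ADAMTSL4 of all 28 heifers. Whether the smooth muscle content of a biopsy took part in the differences between treatments was not tested beyond the fits with the covariate given above.

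**Figure D3:**
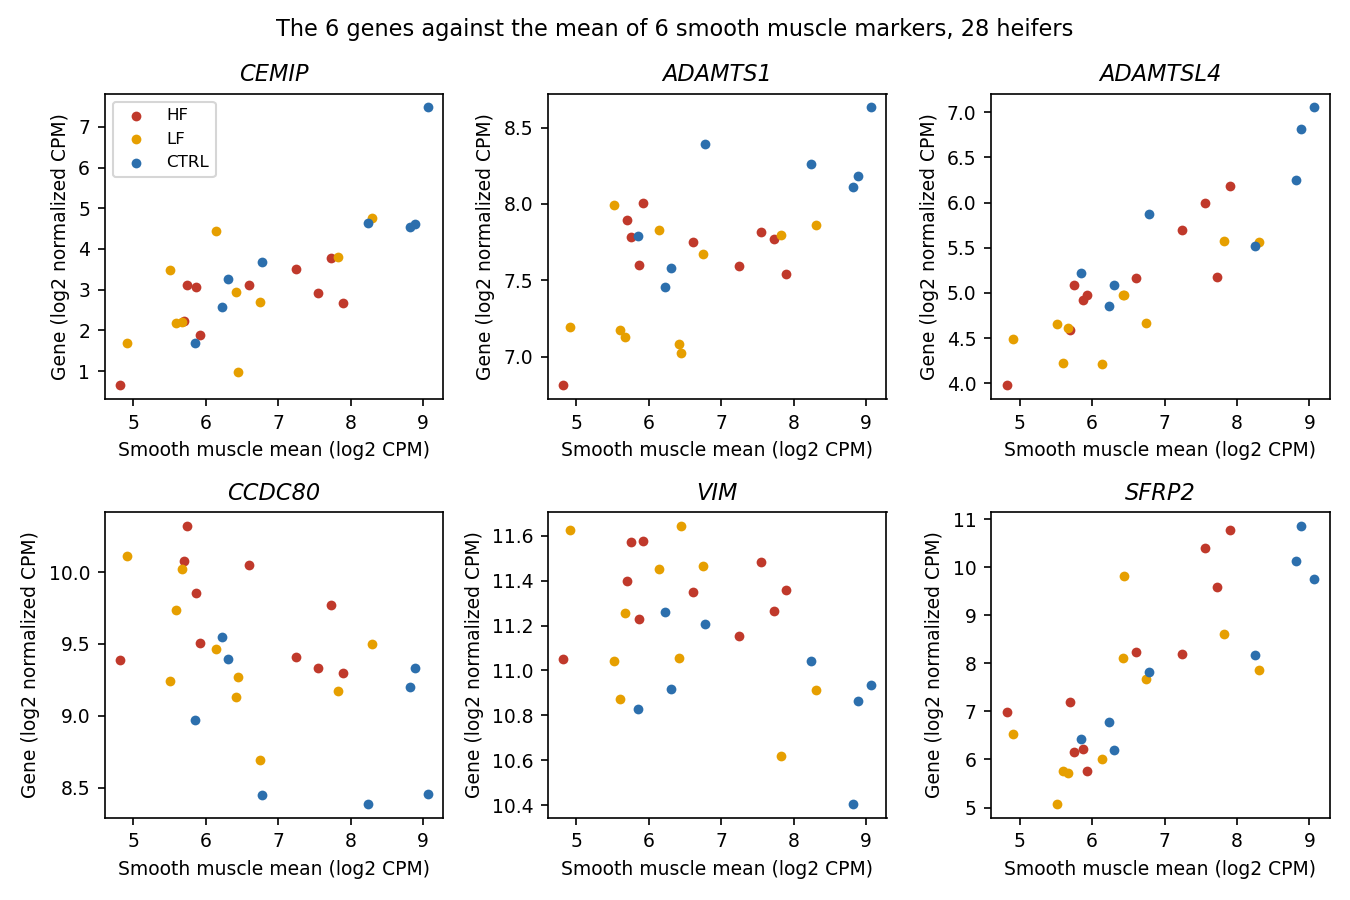
The log2 normalized CPM of each gene against the mean log2 CPM of 6 smooth muscle markers, 1 point per heifer coloured by treatment. ADAMTSL4 and SFRP2 climb with the smooth muscle mean in all 3 treatments, and CEMIP does so with CTRL1 at the upper right (178 CPM). Over all 28 heifers CCDC80 and VIM lie lower where smooth muscle genes are high (Spearman −0.50 and −0.31). Inside the treatments VIM has 0.07 in HF, −0.21 in LF and −0.17 in CTRL heifers.

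Markers of other cell types were few. Of 10 epithelial markers 2 had a name, and their summed level was 117 to 282 CPM in HF, 185 to 299 in LF and 98.9 to 263 in CTRL heifers. KRT8 had a log2FC of 0.58 (standard error 0.21, adjusted p = 0.874 in edgeR) and the epithelial splicing factor ESRP1 0.30 (standard error 0.12, adjusted p = 0.874) in LF relative to CTRL heifers. The 1 named pericyte marker of 5, MCAM, ran from 62.4 to 150 CPM in HF, from 76.1 to 161 in LF and from 84.1 to 271 in CTRL heifers, with a log2FC of −0.42 (standard error 0.18, adjusted p = 0.383) in HF and LF together. None of 7 endothelial and none of 8 leukocyte markers had a name, so these cells were not assessed here. The part of epithelium and pericytes in the results was not tested.

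The genes whose levels ran most like each of the 6 genes over the 28 heifers were taken from 15163 genes by Spearman correlation of log2 CPM. For CEMIP these were PARVA (0.87) and LPP (0.86), which code for proteins of focal adhesions, and ENSBTAG00000013491 (0.85), which has no name in the sources used here. For ADAMTS1 they were the neural adhesion gene CNTN4, the matrix glycoprotein tenascin C (TNC) and the chloride channel CLIC4 (0.83, 0.83 and 0.82). For ADAMTSL4 they were the methionine sulfoxide reductase MSRB3 (0.89), the calcium pump ATP2B2 (0.87) and the collagen XII chain COL12A1 (0.86).

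For CCDC80 the nearest genes were the peptide transporter SLC15A3 (0.86), LRTM2 (0.85) and ENSBTAG00000009216 (0.84). For VIM they were ENSBTAG00000004421 (0.87), the matrix protein spondin 2 (SPON2, 0.84) and ENSBTAG00000003832 (0.83). For SFRP2 they were the cochaperone BAG2, the carbonic anhydrase related gene CA8 and the potassium channel interacting gene KCNIP4, each at 0.93. None of the 6 genes was among the nearest genes of another.

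Heifers that had received semen of the same bull were not alike in every gene. For VIM the 2 heifers of a bull differed by 1.03-fold to 1.80-fold, and for CCDC80 by 1.02-fold to 1.85-fold. For CEMIP they differed by 1.16-fold to 2.36-fold within the 5 HF bulls and by 1.69-fold to 6.73-fold within the 5 LF bulls. For ADAMTSL4 the heifer of study replicate 1 had the higher level in all 5 HF bulls, by 1.41-fold to 2.41-fold. How many of all genes had such an order was not computed. Within the LF bulls ADAMTSL4 went both ways. Study replicates 1 and 2 gave 25.4 and 47.8 CPM for 1 LF bull, and 22.5 and 18.6 CPM for another. The paired heifers of each bull came from both study replicates, so a difference within a pair is also one between study replicates. With the counts of each bull's heifers summed, the log2FC relative to CTRL heifers stayed within 0.12 of the values above for each of the 6 genes in HF and LF heifers. The standard errors in HF relative to CTRL heifers rose for each of the 6 genes, for CEMIP from 0.61 to 0.87 and for VIM from 0.117 to 0.133. In LF relative to CTRL heifers they rose for all but VIM (0.158 to 0.152). DESeq2 was not run on the summed counts, so its calls treat heifers of the same bull as independent.

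**Figure D4:**
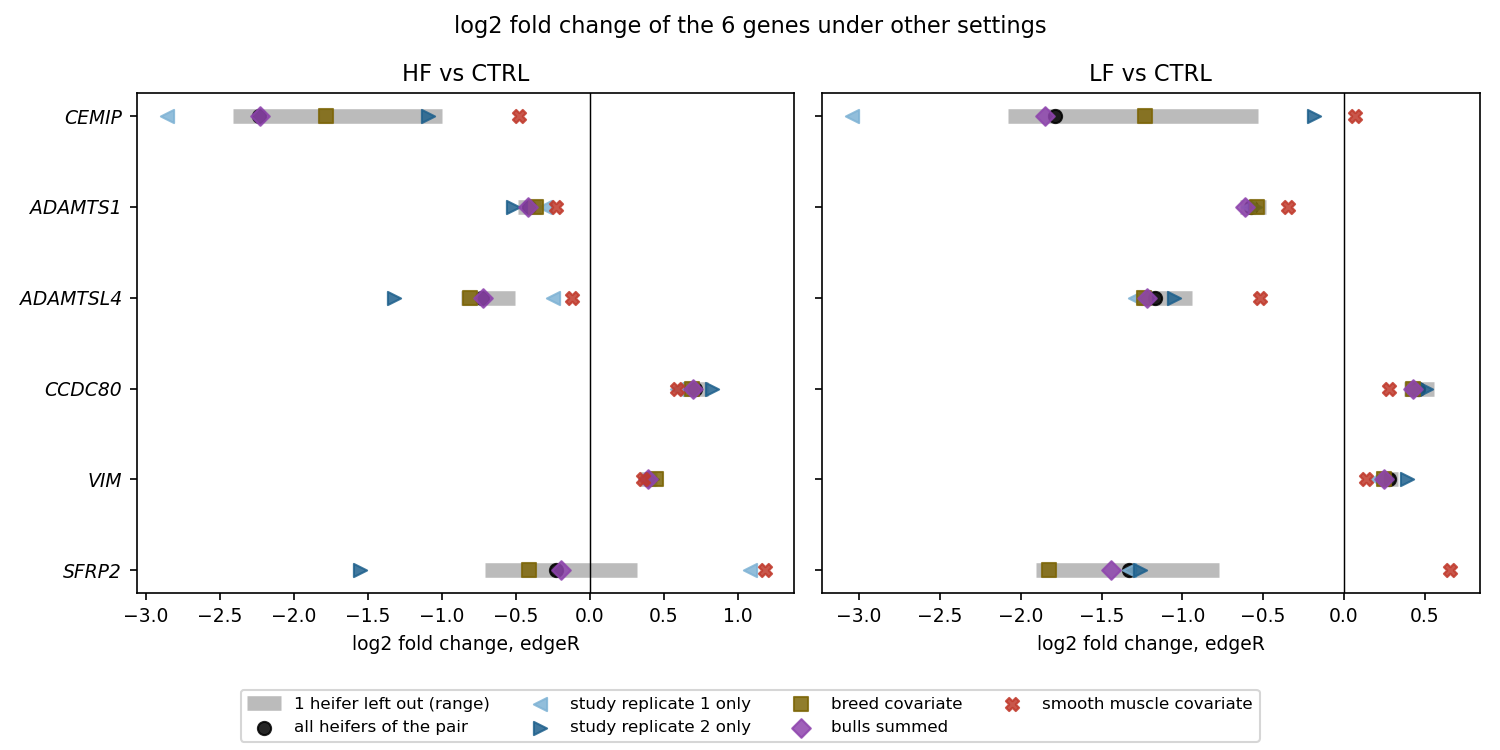
The edgeR log2 fold change of each gene in HF and LF relative to CTRL heifers with all heifers, within each study replicate, with a covariate for breed or for the smooth muscle mean, and with the heifers of a bull summed, over a grey bar for the range when 1 heifer is left out. CCDC80 and VIM keep to a narrow range above 0 in HF heifers (0.59 to 0.82 and 0.36 to 0.45 for the plotted settings), while CEMIP spans −2.86 to −0.48 and SFRP2 crosses 0.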

How the data were processed

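One uterine biopsy from each of 28 heifers was sequenced from polyA RNA with a stranded kit. The deposited values are raw read counts per gene ID of Ensembl, which the authors made by aligning to the bovine genome ARS-UCD1.2 and did not normalize. Per the processing notes the tools were STAR 2.6.1b and Subread 1.6.3, whereas the methods of the study name an earlier STAR release with its own counting option, and which of them made the counts is not clear. The strand setting is not given in the sources at hand, so overlapping genes may share reads. Total counts were 14872812 to 25633259.

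Counts were analysed in R 4.3.3 with the quasi-likelihood test of edgeR 4.0.16 (TMM, and filterByExpr with minimum count 10) for each pair of treatments on its own heifers, and for HF and LF against CTRL on all 28. DESeq2 1.42.0 was the other tool. The threshold was a Benjamini-Hochberg adjusted p of 0.05. Standard errors were derived from the F statistic as log2FC over its root, and 95% intervals span 1.96 of them on both sides. Log2 CPM used a prior count of 2. Both tools were tested on simulated data. Alternatives were another normalization, no filter, a robust fit, all heifers in 1 fit, the replicate block, study replicate, breed, summed bulls, the smooth muscle mean, and each heifer left out. The last 2 were also run in DESeq2, which was chosen after seeing the data.

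Names of 1487 IDs came from tables of the study, placeholder names of open reading frames left out. The 6 genes and the gene lists were chosen with earlier results of these data known. The other named genes were, for each of the 6, the 3 with the highest Spearman correlation, and the named members of 13 lists (hyaluronan, ADAMTS family, microfibrils, metalloproteinases, Wnt modulators, CCDC80 relatives, intermediate filaments, and stromal, smooth muscle, epithelial, endothelial, leukocyte and pericyte markers), up to 4 each with the smallest p in HF and LF against CTRL. All named smooth muscle markers are given because they enter the mean.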

Additional observations from a re-analysis of the deposited data

Results flagged for a closer look

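In each of 18 groups of values (6 genes in 3 treatments) the highest and the lowest heifer were compared with the rest by Dixon's criterion, and 3 groups met it. For normally distributed values chance meets it in about 1 in 20 groups. It was applied here to CPM not on a log scale, where that rate may not hold. CEMIP in CTRL1, at 178 CPM, stood above the other 7 CTRL heifers, the next of which were near 25 CPM, and the gap took 0.876 of the range of the group. ADAMTS1 in HF7, at 112 CPM, stood below the other 9 HF heifers, and this heifer also had the lowest smooth muscle mean. SFRP2 in LF7, at 908 CPM, stood above the other 9 LF heifers, and the other heifer of the same bull, LF2, had the lowest SFRP2 of all 28 at 33.7 CPM. Without LF7 the log2FC of SFRP2 in LF relative to CTRL heifers was −1.91 instead of −1.33. Without HF7 the log2FC of ADAMTS1 between HF and LF heifers was 0.23 instead of 0.15.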

How the results depend on the processing

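All p-values measure the spread between single biopsies of heifers, the heifers of a treatment share bulls in pairs, and the names at hand cover few genes of each list. The number of genes that edgeR called, 0 in every comparison, became 328 in HF against CTRL, 2 in LF against CTRL, 27 in HF against LF and 27 in HF and LF against CTRL with DESeq2. In DESeq2 fits with the smooth muscle covariate, chosen after seeing the data, these were 111, 1, 45 and 1. With no count filter edgeR called 2 genes in HF and LF against CTRL. In edgeR, leaving out 1 heifer gave 0 to 91 genes in HF against CTRL (91 without CTRL2 and 3 without CTRL6) and 0 to 1 in HF and LF against CTRL (1 each without CTRL2, CTRL5, CTRL7 or CTRL8). In DESeq2 the count in HF against CTRL ran from 91 (without CTRL4) to 869 (without CTRL2), and it moved by over 1.5 times also without CTRL1, CTRL5, CTRL8, HF2, HF9 or HF10 (fewer) and CTRL6 or CTRL7 (more). That in HF and LF against CTRL ran from 2 (without CTRL1 or CTRL4) to 198 (without CTRL2), with like moves without CTRL5, HF9, LF3 or LF9 (fewer) and CTRL3, CTRL8, LF1, LF8 or LF10 (more).

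The sign of SFRP2 in HF against CTRL turned within study replicate 1 (1.08), with the smooth muscle covariate (1.18 in edgeR and 1.17 in DESeq2) and without CTRL7, the range over single heifers left out being −0.71 to 0.32. In LF against CTRL the smooth muscle covariate turned SFRP2 (0.66 in edgeR and 0.65 in DESeq2) and CEMIP (0.071 and 0.084), and in HF and LF against CTRL it turned SFRP2 (0.94 and 0.94). Between HF and LF, CEMIP turned within study replicate 1 (0.18), and ADAMTSL4 (−0.26) and SFRP2 (−0.22) within study replicate 2. The cause was not tested. No other log2FC of the 6 genes changed sign under any setting run, and edgeR called none of the 6 under any of them.

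The heifer numbers of the labels mark no shared animal, and heifers with the same number had deviations correlated above 0.1 in only 5 of 8 (HF and CTRL), 4 of 8 (LF and CTRL) and 5 of 10 (HF and LF) pairs. With the number as a replicate block edgeR called 0 genes in every comparison, and CEMIP had a log2FC of −1.30 in HF and −1.33 in LF against CTRL.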
